A study of Mus musculus with 14 samples.

Results

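Kinesin motor genes were followed in the mouse testis with and without Glis3. They were taken as the non-control probes of the array whose gene name in the file starts with Kif followed by a digit or c, or with Klc followed by a digit, which gave 75 probes of 38 gene names among 27962 gene names on the array. The probe with the highest mean over the 4 groups stood for a gene with several probes. The Klc names are kinesin light chains, which carry no motor but bind the cargo of conventional kinesin, and are counted here as kinesin genes.

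The study measured total RNA of testis from C57BL/6 mice on Agilent single-colour arrays, with 14 samples on 14 arrays. Glis3 codes for a DNA-binding protein with zinc fingers of the GLI type, and the mutant genotype is labelled Glis3KO2. At 1 week of age each genotype had 4 samples, and at 4 weeks each had 3. The pups stayed with their mother and no sample was treated, so WT and Glis3KO2 of an age differ in the labels by genotype alone. The older mice are 4 weeks old by the sample labels, used here, and 3 weeks old by the design text. The labels name neither the deleted part of Glis3 nor the cells that lost it, and do not say that the samples of a group came from separate animals, so p-values measure the spread between these samples, which may be technical.

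Kinesins are ATP-driven motors that walk along microtubules. Some assemble and shorten the mitotic and meiotic spindles and cut daughter cells apart, some carry vesicles and organelles, and those of the kinesin-II type carry building material into cilia and flagella. In the testis, dividing germ cells use the spindle motors, while spermatids use a smaller set of kinesins to shape the sperm head and to build the sperm tail.

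The probes lie, on the mm7 positions in the files, at chr11:91684440-91684499 for Kif2b, chr4:116536609-116536668 for Kif2c, chr1:92923344-92923403 for Kif1a, chr2:49781907-49781966 for Kif5c and chr13:57382832-57382891 for Kif27. Those of Kif9 (chr9:110219041-110222619) and Kif17 (chr4:137674695-137676697) span more than the 60 bases of a probe.

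Signals were taken as log2 and set against the 75th percentile of their array, and a difference is Glis3KO2 minus WT unless stated. A gene was called when its adjusted p in limma (Benjamini-Hochberg over all genes tested) was under 0.05, and it is said to have risen or fallen only then. The levels of different genes were read with different probes and are not compared with each other. Glis3 itself was well above background on 4 of 4 1-week WT arrays, at -4.87 ± 0.18 (SD, n = 4), and on 0 of 4 1-week Glis3KO2 arrays, which puts it at least 4.25-fold lower (limma adjusted p = 0.0058). At 4 weeks it was above background on 0 of 3 arrays of either genotype, so the label was not checked at that age, and whether the probe lies in the deleted part is not stated. The share of spots well above background ran from 74.3% to 86.6%. It was 82.6% to 86.6% in 1-week WT replicates 1 to 3, 76.7% in replicate 4 of that group and 74.3% to 78.5% in 1-week Glis3KO2. The arrays of each age lie on slides of their own, so age and slide cannot be told apart. In every group, each of the 38 kinesin genes was detected above background by 3 arrays or more. The number of arrays limits the precision of every value.

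The promoters of the kinesin genes were read first, to set sequence features beside the role lists. RefSeq windows (GRCm38.p6) of 300 bases, from 250 bases before to 50 after the start of the transcript, matched 29 of the 38 genes by symbol. Those of 5 genes are printed in the direction of the gene. Kif17 and Kif9 stand for the genes with a role in flagella, Kif2b for the largest change with age, Kif15 for the spindle motors and Kif5c for the transport motors. Capitals mark GTTGCC, the core of the X-box that RFX factors bind, TGACG and its reverse CGTCA, the core of the cyclic AMP response element (CRE), TTTGAA and its reverse TTCAAA, the CHR element of cell cycle promoters, and CCAAT. The windows are chr4:138262001-138262300 on the plus strand for Kif17, chr9:110476708-110477007 on the plus strand for Kif9, chr11:91577506-91577805 on the minus strand for Kif2b, chr9:122950831-122951130 on the plus strand for Kif15 and chr2:49619036-49619335 on the plus strand for Kif5c.
Kif17: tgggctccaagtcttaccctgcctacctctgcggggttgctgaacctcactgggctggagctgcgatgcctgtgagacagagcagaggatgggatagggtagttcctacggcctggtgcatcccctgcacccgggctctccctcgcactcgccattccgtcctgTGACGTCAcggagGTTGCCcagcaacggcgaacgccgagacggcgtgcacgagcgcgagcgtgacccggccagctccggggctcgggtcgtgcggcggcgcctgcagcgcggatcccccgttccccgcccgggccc
Kif9: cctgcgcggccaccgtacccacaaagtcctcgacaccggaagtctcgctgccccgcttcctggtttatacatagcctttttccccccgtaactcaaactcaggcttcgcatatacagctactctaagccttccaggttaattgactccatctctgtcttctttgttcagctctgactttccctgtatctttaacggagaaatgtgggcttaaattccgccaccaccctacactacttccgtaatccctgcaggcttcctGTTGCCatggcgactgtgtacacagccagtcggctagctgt
Kif2b: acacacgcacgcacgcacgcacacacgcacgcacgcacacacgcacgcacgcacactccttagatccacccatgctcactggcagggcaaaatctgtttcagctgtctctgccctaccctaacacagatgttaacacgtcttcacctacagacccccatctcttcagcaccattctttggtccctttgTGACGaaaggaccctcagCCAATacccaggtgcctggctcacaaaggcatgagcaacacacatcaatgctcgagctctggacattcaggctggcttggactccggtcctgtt
Kif15: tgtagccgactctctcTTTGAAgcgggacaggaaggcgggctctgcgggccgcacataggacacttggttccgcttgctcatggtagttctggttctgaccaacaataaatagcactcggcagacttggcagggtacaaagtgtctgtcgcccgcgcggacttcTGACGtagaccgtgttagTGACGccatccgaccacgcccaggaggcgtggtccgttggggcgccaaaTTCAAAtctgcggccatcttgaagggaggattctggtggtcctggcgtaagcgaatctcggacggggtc
Kif5c: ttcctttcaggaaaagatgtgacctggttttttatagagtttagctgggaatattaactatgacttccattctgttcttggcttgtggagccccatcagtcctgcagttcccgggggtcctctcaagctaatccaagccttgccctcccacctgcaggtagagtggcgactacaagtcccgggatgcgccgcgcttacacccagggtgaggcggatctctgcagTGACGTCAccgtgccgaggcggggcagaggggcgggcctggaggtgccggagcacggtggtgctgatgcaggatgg

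Kif17 holds a full CRE, TGACGTCA, whose first base lies 86 bases before the start, and an X-box core 73 bases before it. Kif9 holds an X-box core 10 bases after the start. Kif2b holds a CRE core 62 bases and CCAAT 44 bases before the start. Kif15 holds the CHR letters 234 and 19 bases before the start, and the CRE core 86 and 68 bases before it. In Kif5c the full CRE starts 26 bases before the transcript. The 27025 genes with a window have 32851 windows, and a gene counts as holding a motif if any of its windows does, on either strand. The X-box core was in 5 of 8 genes of the cilia list (Kif3a, Kif3c, Kif9, Kif17 and Kif24) and in 14.1% of all genes. It was in 11 of all 29 kinesin genes, with 3 of 10 in the mitosis list and 2 of 8 in the transport list, so it is not particular to the cilia list. The CHR letters were in 8 of 10 genes of the mitosis list, in 1 of 8 transport genes (Kif1a) and in 20.2% of all genes. The mitosis genes without them were Kif2a and Kif18a. The full CRE was in 3 of 29 kinesin genes (Kif5c, Kif17 and Kif18a) and 2.03% of all genes, its core in 16 of 29 and 23.0%, and CCAAT in 14 of 29 and 41.1%. GACCACCCA, the GLI site, was in 0 of 29 kinesin genes and in 0.289% of all genes. The full CRE overlaps its own core, so those counts are nested. A match to these letters is a description of the window, not a bound site.

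**Figure D1:**
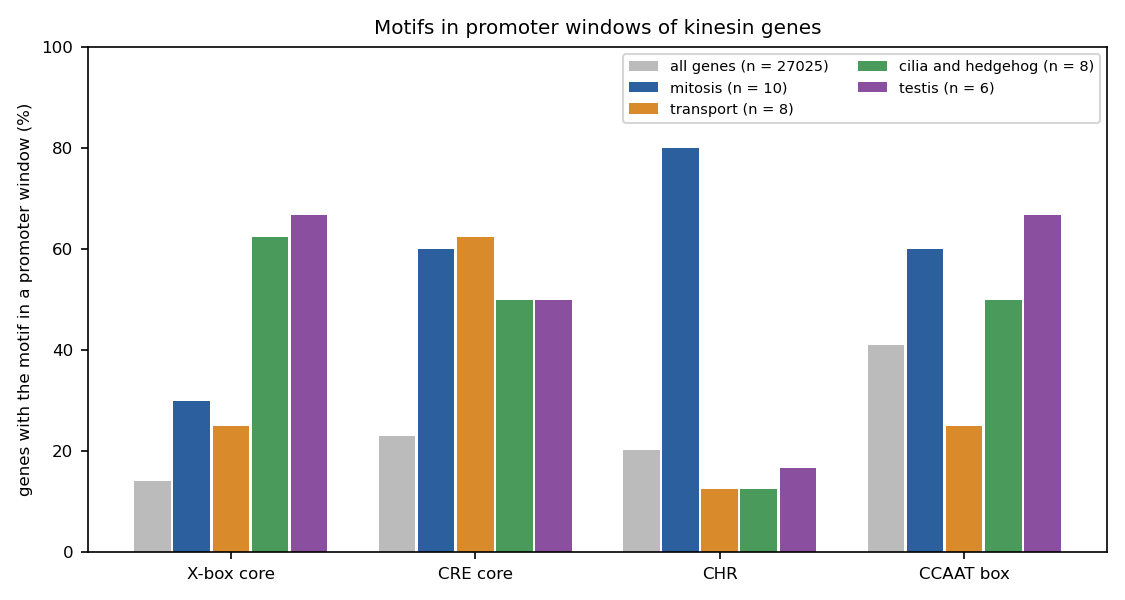
Share of genes (y axis, percent) whose promoter window holds each motif on either strand, for all 27025 genes with a window and for the kinesin genes by role list, with the number of genes in the legend. The CHR bar of the mitosis list stands at 80.0% against 20.2% for all genes, and the X-box bars of the cilia and testis lists at 62.5% and 66.7% against 14.1%.

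In WT testis Kif2b had the largest difference of the kinesin genes between 1 and 4 weeks. Of the 38 genes, 14 were higher and 18 lower at 4 weeks, 36.8% and 47.4% of them, where 31.3% and 49.7% of the 23683 genes tested were higher and lower, so both shares are near the background. All 5 called genes of the testis list were higher (Kif2b, Kif9, Kif17, Kif3a and Klc3, with Kifc1 not called), and the list's median was 2.95 against -0.51 over all genes. The cilia list had 5 higher and 2 lower of 8, the mitosis list 4 higher and 5 lower of 11, and the transport list 3 higher and 10 lower of 15. Of the lower transport genes, Kif21a and Kif21b each had another probe called the opposite way. The other probe of Kif5c read -0.0013 (limma adjusted p = 0.995). Beside these list counts, 9 of 9 spermatid markers and 8 of 8 spermatocyte markers were higher, and 5 of 5 epididymis markers tested were higher. Sertoli markers were lower in 8 of 10, with 1 higher, those of undifferentiated spermatogonia lower in 8 of 9, with 1 higher, and peritubular and endothelial markers each lower in 5 of 5. Their part in the kinesin values was not tested. In bulk tissue, fewer cells of a type and less RNA per cell cannot be told apart.

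Kif2b belongs to the kinesins that take microtubule ends apart rather than walk. Its 1-week WT arrays read -6.17, -6.48, -6.83 and -7.22, and its 4-week WT arrays 5.01, 5.39 and 5.23. The groups were far apart, and the difference of 11.88 (SE 0.25, limma adjusted p = 5.6e-08) was the largest of any kinesin gene between the ages. Kif2b was not well above background on every 1-week WT array, and its difference ranged from 9.76 to 12.05 over other settings. Kif9, a motor of the sperm tail axoneme, rose by 5.82 (SE 0.12, adjusted p = 5.5e-08 in limma), and Kif17, a kinesin-II type motor of cilia with a spermatid form, by 4.36 (SE 0.20, adjusted p = 1.1e-06). Among those that fell, Kif7, which tunes hedgehog signalling at the cilium tip, dropped by 2.44 (SE 0.12, adjusted p = 1.7e-06 in limma). Kif1a, known for carrying synaptic vesicle precursors in neurons, dropped by 2.39 (SE 0.11, adjusted p = 1.3e-06). Kif12 dropped by 3.83 on its brighter probe (SE 0.30, adjusted p = 1.7e-05 in limma), and its other probe read 0.51 with an adjusted p of 0.14.

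At 4 weeks the kinesin genes of Glis3KO2 testis parted by role. Of the 38 genes 20 were lower, 12 higher and 6 not called. The lower share of 52.6% compares with 34.1% of the 21338 genes tested, and the higher share of 31.6% with 35.1%, so the higher share is near the background. The mitosis list had 10 lower of 11 and none higher, with a median of -1.09. The testis list had 6 lower of 6 with a median of -1.82, and the cilia list 5 lower and 2 higher of 8. The transport list went the other way with 10 higher and 3 lower of 15 and a median of 0.67, where the median of all genes was 0.03. Kif3a, Kif9 and Kif17 are in both the cilia and the testis list, and Kifc1 in both the mitosis and the testis list. Of the 38 genes, 35 had no overlap of arrays between the genotypes. The share over all genes tested was not counted, so this number shows nothing particular to kinesin genes. The 32 called genes kept their sign on slide 4 and on slide 5, which each hold both genotypes. These are the arrays that made the calls, and a gene without overlap must keep its sign on each slide, so this adds no support. Leaving out 1 array gave 18 to 20 lower and 7 to 14 higher, with the fewest higher, 7, without WT replicate 3.

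**Figure D2:**
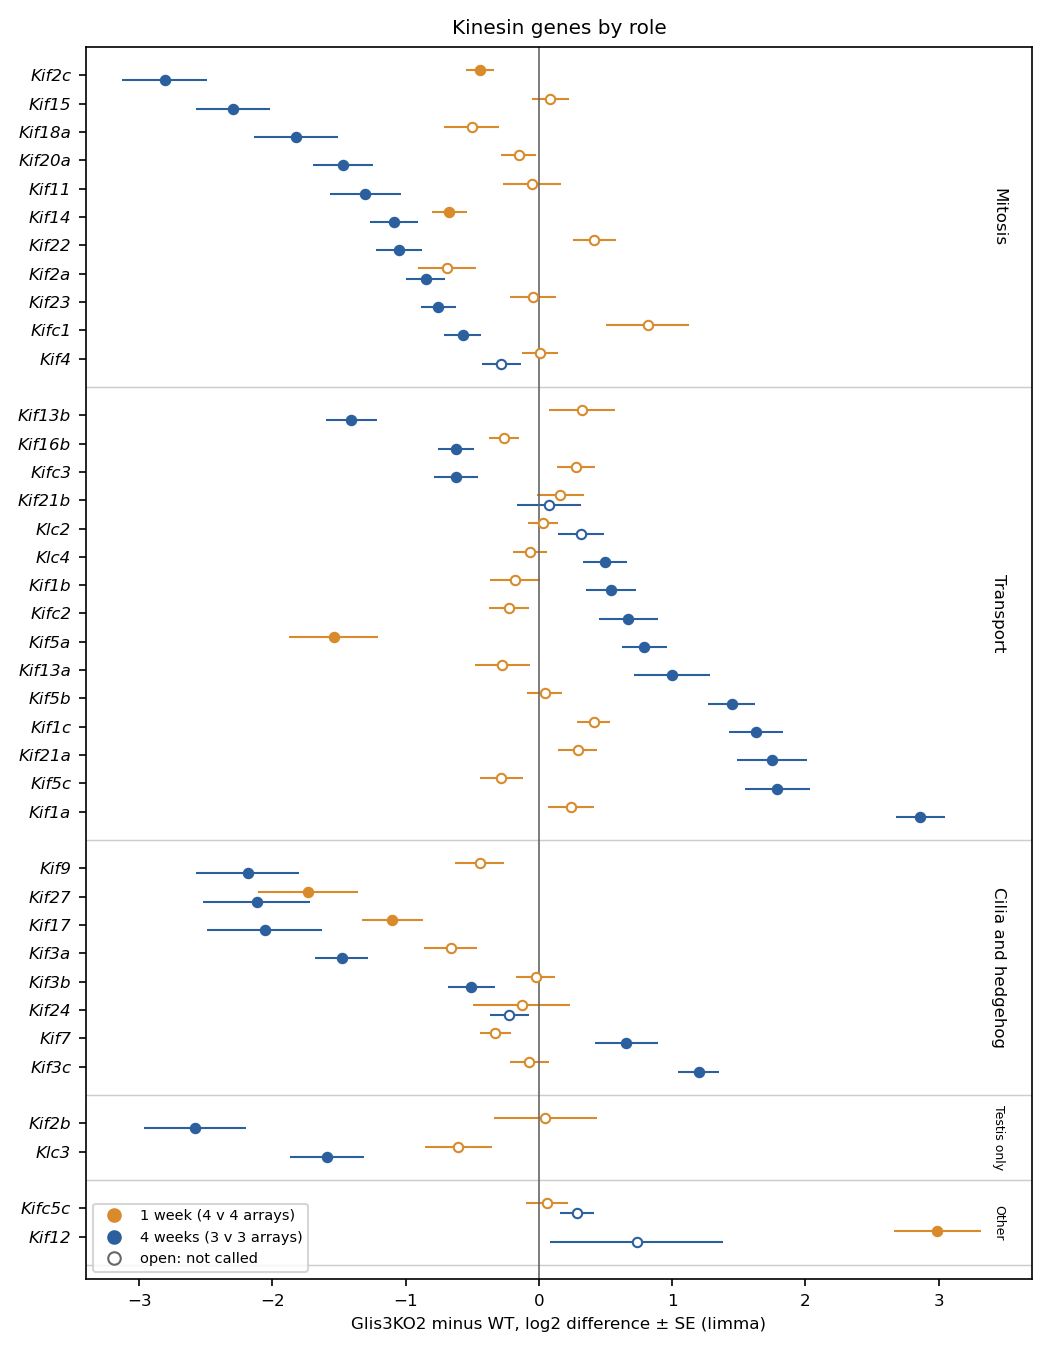
Log2 difference between Glis3KO2 and WT (x axis, ± SE from limma) for the 38 kinesin genes grouped by role, at 1 week in orange and 4 weeks in blue, with open points for genes not called. A gene in several lists is drawn in the first. The 4-week points of the mitosis list lie left of zero, from -2.81 for Kif2c to -0.28 for Kif4, and most of those of the transport list lie right of it, up to 2.86 for Kif1a.

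The spindle motors are taken first. Kif2c, the centromere kinesin that removes wrongly attached microtubules, read 3.00, 3.50 and 3.37 in 4-week WT and 0.60, -0.17 and 1.02 in Glis3KO2. The Glis3KO2 arrays lay far below every WT array, with a difference of -2.81 (SE 0.32, limma adjusted p = 0.00072). Kif15, which helps to keep the spindle bipolar, read -0.19, 0.45 and 0.09 in WT and -2.20, -2.63 and -1.71 in Glis3KO2. It fell by 2.30 (SE 0.28, adjusted p = 0.00084 in limma), and its other tested probe fell by 1.46. Kif14, a motor of cell cleavage, read -2.53, -2.41 and -2.59 in WT and -3.53, -3.90 and -3.38 in Glis3KO2, again without overlap, and fell by 1.09 (SE 0.18, adjusted p = 0.0019).

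The other called spindle motors fell by 0.57 to 1.83. Kif18a, which holds chromosomes at the spindle equator, fell by 1.83, Kif20a of the cleavage furrow by 1.47, Kif11, the motor that pushes spindle poles apart, by 1.30, and the chromosome-bound Kif22 by 1.05. Kif2a, a depolymerizing kinesin of the spindle poles, fell by 0.85, Kif23 of the central spindle by 0.75 and Kifc1 by 0.57. The Kifc1 call did not hold without WT replicate 1 or in a fit of all arrays, where the highest adjusted p was 0.10. Kif4, a chromosome-bound motor, had a difference of -0.28 (adjusted p = 0.13 in limma) and no overlap of arrays. The probes named Kifc1 carry an accession that RefSeq now gives to Kifc5b, and such near-identical copies cannot be told apart here.

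Of 26 partner genes of mitosis, 22 were lower and none higher, with a median of -1.35, where 34.1% of all genes tested were lower. Those with the smallest p were Aurkc, a meiotic Aurora kinase, at -2.43, Birc5 (survivin) at -1.83, Ndc80 of the kinetochore at -1.50 and Mki67, the proliferation antigen, at -0.98.

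All 6 genes of the testis list were lower in 4-week Glis3KO2 than in 4-week WT. Kif2b read 5.01, 5.39 and 5.23 in WT and 2.32, 2.04 and 3.53 in Glis3KO2, a difference of -2.58 (SE 0.38, limma adjusted p = 0.0014), and all 3 mutant arrays stayed far above the 1-week arrays. Kif9 read 1.63, 1.63 and 1.66 in WT and -1.11, -0.93 and 0.39 in Glis3KO2, a fall of 2.19 (SE 0.39, adjusted p = 0.0025). Kif17 read -0.23, 0.09 and -0.0012 in WT and -2.60, -2.67 and -1.05 in Glis3KO2, a fall of 2.06 (SE 0.43, adjusted p = 0.0049). In each of these genes the WT arrays were tight and Glis3KO2 replicate 3 lay nearest to them.

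Klc3, a light chain that binds the outer dense fibres of the sperm tail, read 0.72, 1.29 and 1.08 in WT and -0.07, -0.60 and -0.9979 in Glis3KO2. It fell by 1.59 (SE 0.27, adjusted p = 0.0023 in limma), and here replicate 3 was the lowest mutant array. Kif3a, the kinesin-II subunit needed for cilia and for the sperm tail, read 2.96, 3.03 and 2.96 in WT and 1.41, 1.21 and 1.89 in Glis3KO2. It fell by 1.48 (SE 0.20, adjusted p = 0.0011). The positions of its probe leave a gap, with 3067 bases between its ends on mm7 (chr11:53551693-53554759), more than the length of the probe. Kifc1, which lies at the nucleus and acrosome of spermatids, read 0.43, 0.26 and 0.29 in WT and -0.20, -0.37 and -0.18 in Glis3KO2, the smallest drop of the list.

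Of the remaining cilia genes, Kif27, a relative of Kif7 known from motile cilia, read 2.23, 2.46 and 2.35 in WT and -0.28, -0.24 and 1.20 in Glis3KO2. It fell by 2.12 (SE 0.40, limma adjusted p = 0.0032), and its other probe fell by 2.52. Kif3b, the partner subunit of Kif3a, fell by 0.51 (adjusted p = 0.037). Its alternative partner-type subunit Kif3c went up instead, from -3.06, -3.04 and -3.15 in WT to -1.99, -1.66 and -2.001 in Glis3KO2, a rise of 1.20 (SE 0.15, adjusted p = 0.00097 in limma). Kif7 read -3.25, -3.53 and -3.65 in WT and -2.50, -2.69 and -3.27 in Glis3KO2. These groups overlapped, and its rise of 0.66 (SE 0.24, adjusted p = 0.043) was lost in 9 of 19 other settings. Kif24, a negative regulator of cilium growth, was not called on its brighter probe (-0.22, adjusted p = 0.21 in limma), while its other probe fell by 1.39. Kif24 is therefore left undecided. The intraflagellar transport genes, which encode the trains that Kif3a and its partner move, were 18 lower of 18 at 4 weeks with a median of -1.36. Ift74 fell by 1.88, Ttc21b by 1.51, Ift46 by 1.26 and Ift57 by 1.18.

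**Figure D3:**
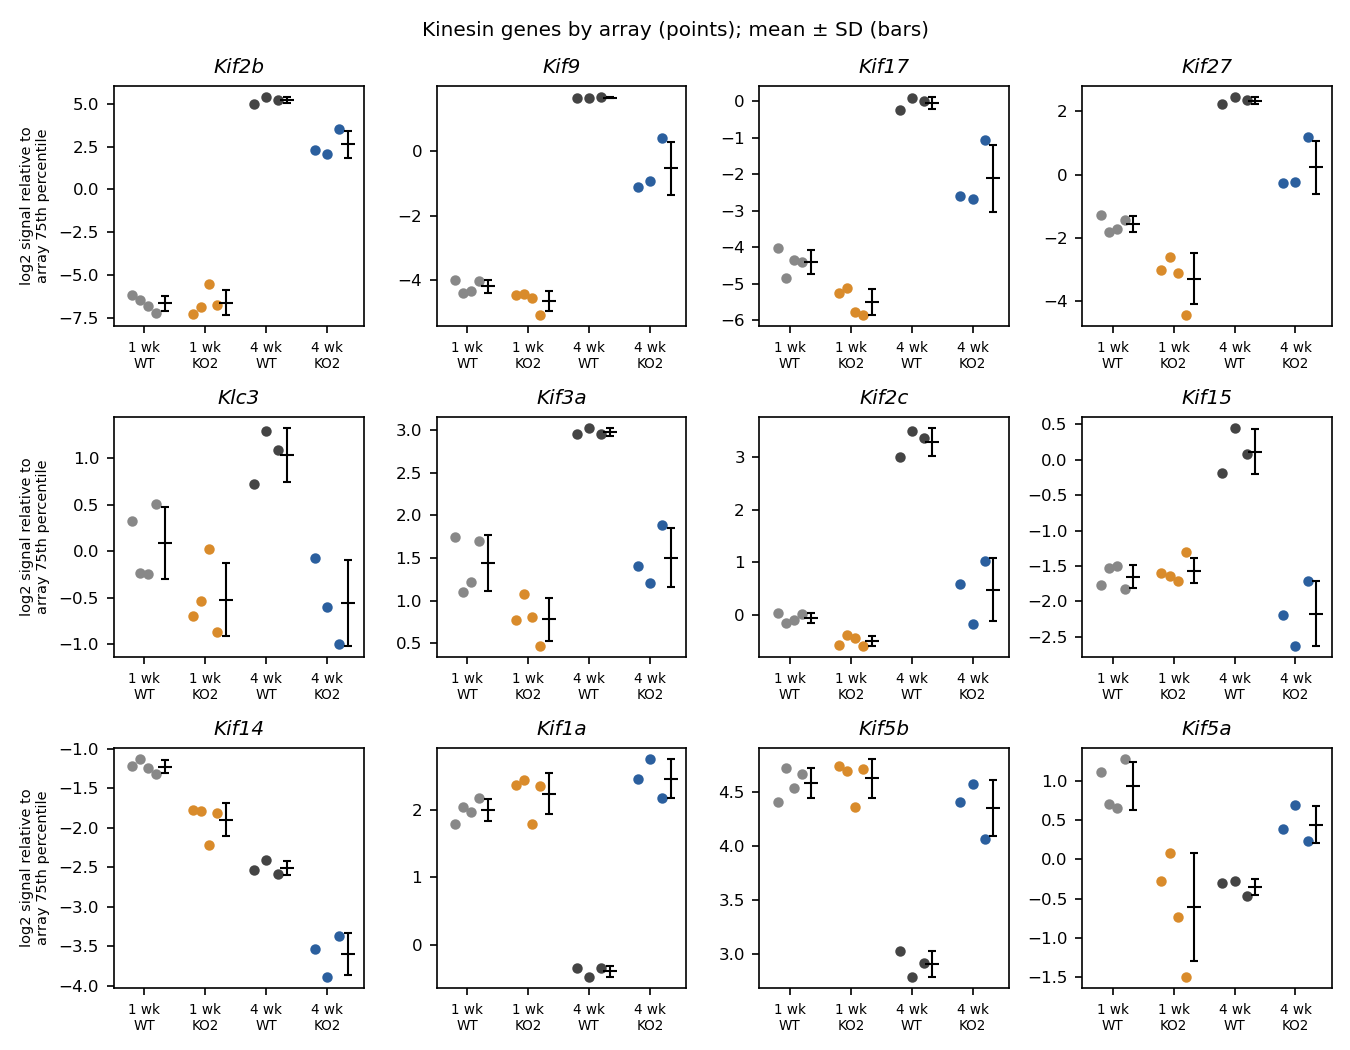
Log2 signal relative to the array's 75th percentile (y axis) of 12 kinesin genes on each array, by age and genotype, with KO2 for Glis3KO2, points for arrays and bars for the mean ± SD (n = 4 per group at 1 week and n = 3 at 4 weeks). For Kif2b, Kif9, Kif17 and Kif27 the 4-week Glis3KO2 arrays lie between the 1-week and the 4-week WT arrays, and for Kif1a and Kif5b the 4-week WT arrays lie below all others.

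The transport motors held most of the genes that rose. Kif1a read -0.35, -0.49 and -0.35 in 4-week WT and 2.46, 2.76 and 2.18 in Glis3KO2, a rise of 2.86 (SE 0.18, limma adjusted p = 0.00045), or 7.26-fold. The mutant arrays lay close to the 1-week arrays of both genotypes, which ranged from 1.79 to 2.44. Its other probe had a difference of 0.51 (adjusted p = 0.11), and the mean of both probes 1.68. Kif5b, the widely expressed heavy chain of conventional kinesin, read 3.02, 2.78 and 2.92 in WT and 4.41, 4.58 and 4.07 in Glis3KO2. It rose by 1.45 (SE 0.18, adjusted p = 0.00088 in limma), and its other probe rose as well. Kif1c, a carrier of vesicles, read -1.84, -2.13 and -2.01 in WT and -0.10, -0.26 and -0.73 in Glis3KO2, a rise of 1.63 (SE 0.20, adjusted p = 0.0009). Its other probes read 0.35 and 0.94, of which the second was called.

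For some transport genes the probes differed. Kif21a, known from axons, read -2.46, -2.65 and -2.51 in WT and -0.33, -0.71 and -1.34 in Glis3KO2, a rise of 1.75 (SE 0.26, adjusted p = 0.0015 in limma). Its other probe had a difference of -0.18 (adjusted p = 0.40). Kif5c, a neuronal heavy chain of conventional kinesin, read -1.03, -1.23 and -1.15 in WT and 0.99, 0.85 and 0.13 in Glis3KO2, a rise of 1.79 (SE 0.24, adjusted p = 0.0011 in limma). Its other probe fell by 0.91 (adjusted p = 0.024), so its direction depends on the probe. Kif5a, the third heavy chain, read -0.30, -0.28 and -0.47 in WT and 0.39, 0.69 and 0.23 in Glis3KO2, and rose by 0.79 (SE 0.17, adjusted p = 0.0053) with its other probe at 0.54.

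Smaller rises were those of Kif13a (1.00), Kifc2 (0.67), Kif1b (0.54) and the light chain Klc4 (0.50), while Klc2 was not called (0.32). Kif13b fell by 1.41, and Kif16b of early endosomes and Kifc3 of the minus-end directed group each fell by 0.62. Kifc5c, now listed as a pseudogene and near-identical to the Kifc1 group, was not called (0.28). Kif21b was not called on its brightest probe (0.08), and 1 of its other probes fell by 1.37. Over the 28 genes with other probes, 31 other probes were tested at 4 weeks and 20 were called. The sign differed from the brightest probe in 5, and for Kif5c both were called in opposite directions. Among the called genes 20 had at least 1 other tested probe, and some had several. Of the 31 other probes tested, 17 were called the same way as a called brightest probe.

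**Figure D4:**
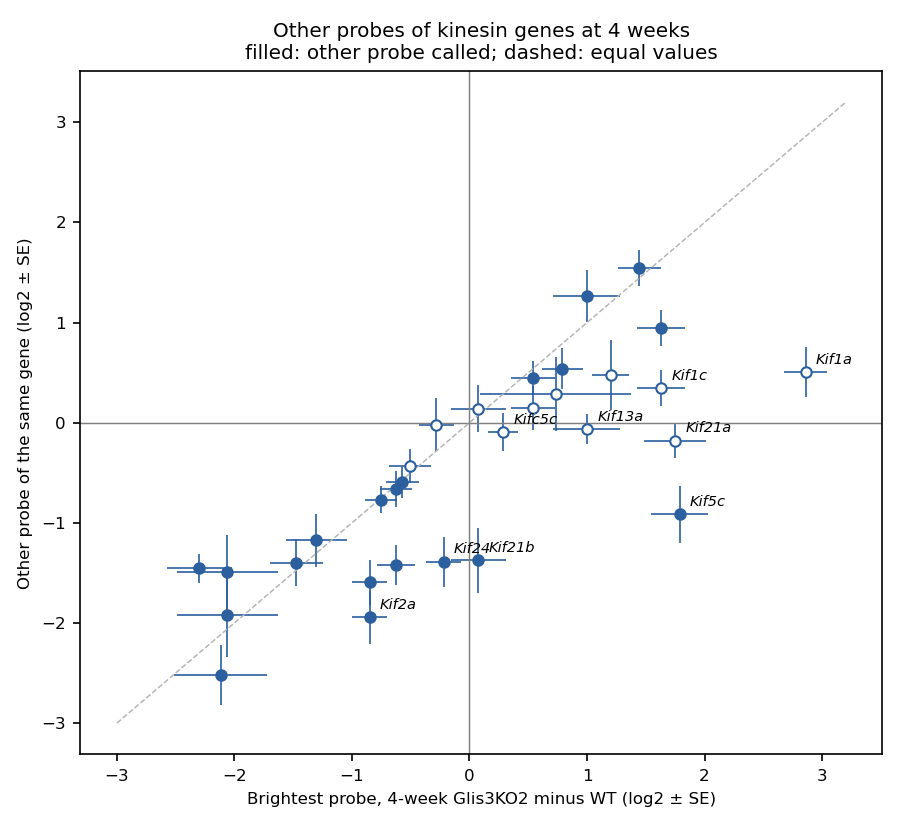
Log2 difference between Glis3KO2 and WT at 4 weeks (± SE from limma) of the brightest probe of a kinesin gene (x axis) and of each other tested probe of that gene (y axis), filled where the other probe was called, with genes named where the signs differ or the values are far apart. The dashed line marks equal values. Kif5c lies at 1.79 and -0.91, and Kif1a at 2.86 and 0.51.

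The genes that link kinesins to cargo were mixed, with 5 higher and 12 lower of 21 (median -0.47), where 35.1% of all genes tested were higher and 34.1% lower. Fez2, an adaptor of kinesin, rose by 2.24, Arl8a, which couples lysosomes to kinesin, by 1.90, and Trak2, the mitochondrial adaptor, by 1.73. Fhl5, the coactivator of CREM whose place in the spermatid is set by the Kif17 spermatid form, fell by 3.24. Dynein and dynactin genes, which drive movement the opposite way, were 10 higher and 7 lower of 23 (median 0.02), counts near those same shares. Among those with the smallest p, Dync1i1 rose by 1.51 and Dynlrb1 by 1.65, and Dynll2 fell by 1.51. Bicd1 was not well above background on any 4-week WT array and was at least 1.13-fold higher in Glis3KO2 (adjusted p = 0.00071 in limma).

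Cell type markers were read beside these lists, where 35.1% of all genes tested at 4 weeks were higher and 34.1% lower. At 4 weeks 9 of 9 spermatid markers were lower in Glis3KO2 (median -2.95), and the mean level of the list was 4.40 to 4.84 in WT and 0.91 to 2.16 in Glis3KO2. All 8 spermatocyte markers were lower, with list levels of 4.09 to 4.14 and 1.97 to 3.13. Markers of germ cells in general were lower in 5 of 7. Sertoli markers were higher in 9 of 10 (median 2.03), at 1.04 to 1.14 in WT and 2.64 to 3.11 in Glis3KO2, peritubular markers in 4 of 5, and macrophage markers in 5 of 7 with 1 lower. Markers of undifferentiated spermatogonia were 3 higher and 1 lower of 9. Leydig markers split 2 higher and 2 lower of 7. Endothelial markers were higher in 3 of 5, nerve and glia markers in 3 of 5 tested, and epididymis markers lower in 3 of 5 tested, with blood markers at 0 of 3 in either direction. Every Sertoli, spermatocyte and spermatid marker was above background in both 4-week groups, while Lcn8 of the epididymis was not in either. How far these lists account for the kinesin values was not tested.

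**Figure D5:**
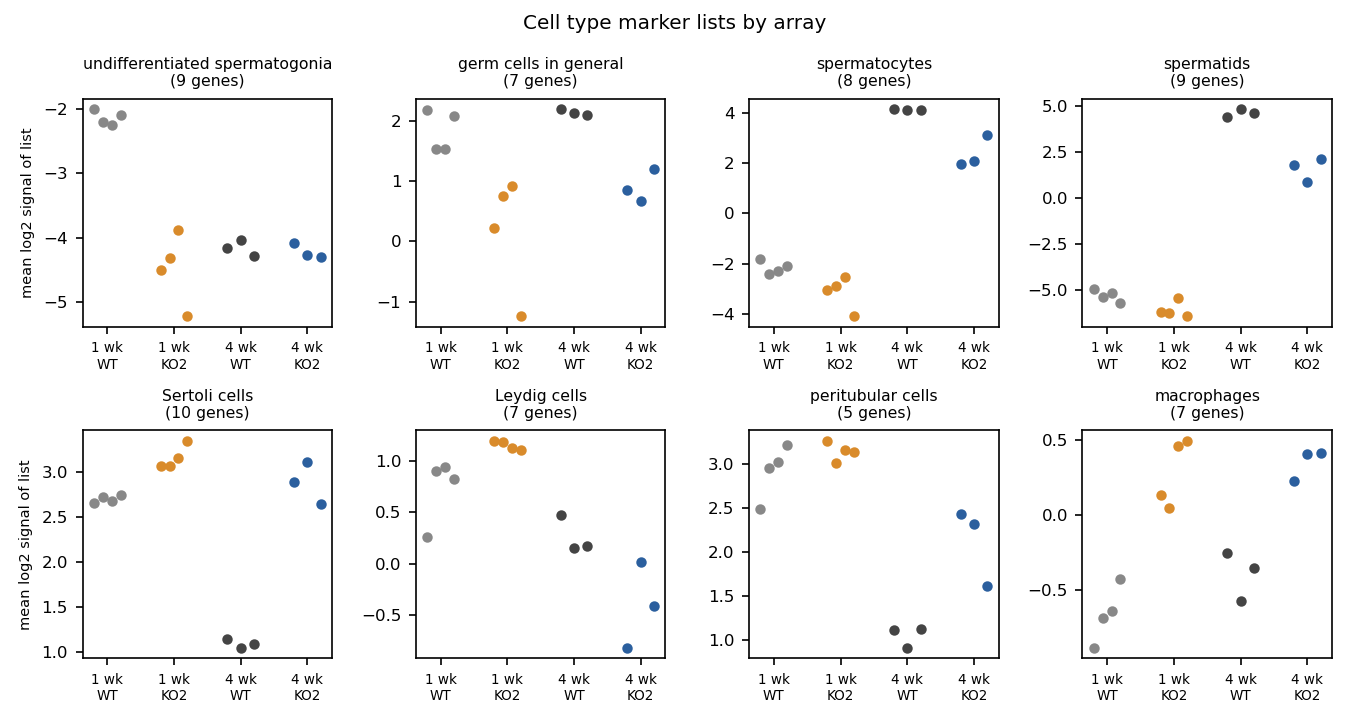
Mean log2 signal relative to the array's 75th percentile (y axis) of 8 cell type marker lists on each array, by age and genotype, with KO2 for Glis3KO2 and the number of genes in each title. At 4 weeks the spermatid list lies at 4.40 to 4.84 in WT and 0.91 to 2.16 in Glis3KO2, and the Sertoli list at 1.04 to 1.14 and 2.64 to 3.11.

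The 4-week Glis3KO2 arrays were not alike. Replicate 3 lay closest to the WT mean for 30 of the 32 called kinesin genes, and replicate 1 for the other 2. Its spermatocyte list stood at 3.13, against 1.97 and 2.10 in replicates 1 and 2, and its Sertoli list at 2.64 against 2.89 and 3.11. It shares slide 5 with WT replicate 2, and the within-slide differences were smaller there for Kif9 (-1.24 on slide 5 and -2.66 on slide 4), Kif17 (-1.14 and -2.52), Kif27 (-1.25 and -2.55) and Kif18a (-0.93 and -2.27). For Kif2c (-2.48 and -2.97), Kif15 (-2.16 and -2.37) and Kif1a (2.66 and 2.96) they were close, and for Klc3 the order turned (-2.29 and -1.24). Without replicate 3 the counts were 20 lower and 14 higher. Replicate and slide cannot be told apart for this array.

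At 1 week few kinesin genes were called. Of the 38, 5 were lower and 1 higher, 13.2% and 2.63%, where 6.14% and 3.9% of the 22678 genes tested were lower and higher. With median scaling the kinesin counts were 3 lower and 3 higher, and all genes went from 1392 lower and 885 higher to 1013 lower and 2886 higher. The kinesin median was -0.07, equal to that of all genes at this precision. At an unadjusted p under 0.05 there were 11 lower and 4 higher kinesin genes. Undifferentiated spermatogonia markers were lower in 9 of 9 and germ cell markers in 3 of 7, with list levels of -2.24 to -2.0016 in WT and -5.23 to -3.88 in Glis3KO2 for the former. Spermatocyte markers were lower in 3 of 8 and higher in 1, and spermatid markers lower in 3 of 7 tested, with Acrv1, Akap4, Odf1 and Hils1 not above background in Glis3KO2. Sertoli markers were higher in 5 of 10, macrophage markers in 4 of 7 and Leydig markers in 3 of 7, with endothelial markers higher in 1 of 5 and peritubular and blood markers not called. Nerve and glia markers were 2 higher and 1 lower of 6. Of 4 epididymis markers tested, Cst8 was higher. Crisp1, another epididymis marker, was detected by 2 of 4 Glis3KO2 arrays and 0 of 4 WT arrays, and so was not tested. Their part in the kinesin values was not tested.

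Kif27 read -1.27, -1.82, -1.74 and -1.45 in 1-week WT and -3.03, -2.60, -3.13 and -4.46 in Glis3KO2, a fall of 1.73 (SE 0.37, limma adjusted p = 0.035). Kif5a read 1.10, 0.71, 0.65 and 1.27 in WT and -0.27, 0.07, -0.73 and -1.50 in Glis3KO2, a fall of 1.54 (SE 0.33, adjusted p = 0.036), and its other probe fell by 1.87. Kif17 read -4.02, -4.84, -4.36 and -4.39 in WT and -5.26, -5.12, -5.78 and -5.85 in Glis3KO2, a fall of 1.10 (SE 0.23, adjusted p = 0.034). None of these overlapped, and in Kif27, Kif5a and Kif17 the lowest array was Glis3KO2 replicate 4, which has a slide to itself and a separate scan day.

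Of the spindle motors, Kif14 and Kif2c were called. Kif14 read -1.22, -1.13, -1.24 and -1.32 in WT and -1.78, -1.80, -2.22 and -1.82 in Glis3KO2, a fall of 0.67 (SE 0.13, adjusted p = 0.028 in limma). Kif2c read 0.04, -0.15, -0.10 and 0.01 in WT and -0.57, -0.38, -0.43 and -0.59 in Glis3KO2, a fall of 0.44 (SE 0.11, adjusted p = 0.043). In both genes the genotypes did not overlap, and for Kif14 Glis3KO2 replicate 3 stood below the other mutant arrays. Of the mitosis partners, 6 of 26 were lower, where 6.14% of all genes tested were lower. Those at the smallest p were Cenpf (-0.74), Bub1b (-0.53), Ndc80 (-0.67) and Aurkc (-1.43). With median scaling 1 of the 26 was lower, and neither Kif14 nor Kif2c was called. Of the adaptors, Kifap3, the cargo subunit of kinesin-II, fell by 0.57, Apba1, which links Kif17 to its cargo, fell by 1.87, and Fez1 rose by 0.66. None of 18 intraflagellar transport genes and none of 23 dynein and dynactin genes was called in limma, with 6 and 8 at an unadjusted p under 0.05.

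The 1-week calls changed with the arrays used, and some with the processing. Kif17 was not called with quantile normalization or the normexp background, where Kif27, Kif5a, Kif14 and Kif2c were. The Kif17 difference ranged from -1.33 to -0.24 over the other settings. The 6 called genes kept their sign on slides 1 and 2, the slides that hold both genotypes, with values of -1.57 and -0.96 for Kif27, -1.38 and -0.92 for Kif5a, -1.33 and -0.51 for Kif17, -0.77 and -0.57 for Kif14 and -0.47 and -0.31 for Kif2c. The genotypes of these 6 genes did not overlap on the same arrays, so the sign had to hold on each slide and adds no support. With slide as a block 1 lower call was left, Kif27 (adjusted p = 0.038 in limma). No lower call was left without WT replicate 1, WT replicate 3 or Glis3KO2 replicate 1, when 7, 10 and 9 genes were lower at an unadjusted p under 0.05, and 1 was left without WT replicate 2. Over all genes the lower calls went from 1392 to 290, 346 and 455 in the first 3 of these settings, and to 438 with the slide block. In those 3 settings the differences ranged from -1.83 to -1.63 for Kif27, -1.65 to -1.48 for Kif5a, -1.18 to -0.97 for Kif17, -0.71 to -0.67 for Kif14 and -0.46 to -0.41 for Kif2c. Without Glis3KO2 replicate 4 there were 3, and without replicate 4 of both genotypes 4. Kif17 and Kif2c were lost in both settings, so the 4 include a kinesin gene that was not called on all arrays. WT replicates 1 to 3 are the arrays with the higher share of spots above background, and the part of that share in these calls was not tested.

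The gene that rose at 1 week was Kif12, a kinesin known from kidney and bile duct epithelium. It read -0.95, -2.07, -1.70 and -2.25 in WT and 1.27, 0.76, 1.84 and 1.11 in Glis3KO2, a rise of 2.99 (SE 0.33, limma adjusted p = 0.0041), with 2.88 on slide 1 and 2.92 on slide 2. Its other probe had a difference of 1.01 (adjusted p = 0.35). Both probes, at chr4:62599373-62599432 and chr4:62599629-62599925 on mm7, match the telomeric repeat CCCTAA in part (a matching base adds 1 and a mismatch takes 1 off), with repeat scores of 11 for the brighter and 7 for the other. The stretches that hold the best ungapped match are shown because both Kif12 probes reach the threshold of 7. Capitals mark the extent of that match, mismatched bases within it included.
Kif12 brighter probe: acagggACCCTGACCCTAGACCTtgaacct
Kif12 other probe: tgggattccAAACCTGACCCcgaggctgga

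Without probes of such a score Kif12 could not be tested and no kinesin gene was higher at 1 week, with 3 higher at an unadjusted p under 0.05. At 4 weeks the brighter probe read -5.63, -5.64 and -5.47 in WT and -3.39, -4.92 and -6.23 in Glis3KO2. Those groups overlapped and Kif12 was not called (0.73, adjusted p = 0.35 in limma). Whether these values come from Kif12 transcripts was not tested. The used probe of Kif5c also reached a score of 7, as did that of Kif23.

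The effect of genotype differed between the ages for 26 of the 38 kinesin genes. The 4-week effect was higher in 12 and lower in 14, 31.6% and 36.8%, where 29.3% and 21.6% of the 23763 genes tested were higher and lower. Median scaling gave 9 higher and 19 lower kinesin genes, and turned the split over all genes from 6974 higher and 5136 lower to 4750 and 6536. In the mitosis list 8 of 11 had the lower effect at 4 weeks and in the transport list 10 of 15 the higher. Kif5a had an effect of -1.54 at 1 week and 0.79 at 4 weeks, a difference of 2.33 (SE 0.43, limma adjusted p = 0.00081), and each effect passed its own test in opposite directions. Kif15 moved from 0.09 to -2.30, a difference of -2.38 (SE 0.30, adjusted p = 9.9e-05 in limma), but as the mean of all its probes the Kif15 difference was -0.77 with an adjusted p of 0.24. Kif17 and Kif27 were lower in Glis3KO2 at both ages, and the differences between their effects, -0.96 (SE 0.50, adjusted p = 0.13) and -0.38 (SE 0.59, adjusted p = 0.61 in limma), did not pass the test. Kif14 had a difference of -0.42 (SE 0.22, adjusted p = 0.13).

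The 4-week WT arrays serve in both the comparison of ages and that of genotypes, which by itself pushes these differences to opposite signs. The values are therefore set side by side without a relation between them. Kif2b differed by 11.88 between the WT ages and by -2.58 between the 4-week genotypes, Kif9 by 5.82 and -2.19, Kif2c by 3.34 and -2.81, and Kif15 by 1.77 and -2.30. Kif1a differed by -2.39 and 2.86, Kif5b by -1.68 and 1.45, and Kif3c by -2.27 and 1.20. Further values are those of Kif14, Kif11 and Kif4. Kif14 was lower at 4 weeks than at 1 week in WT (-1.28) and lower again in 4-week Glis3KO2 (-1.09), as was Kif11 (-1.49 and -1.30), and Kif4 was lower in WT at 4 weeks (-2.18) and not called between the 4-week genotypes.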

How the data were processed

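Total RNA of 14 mouse testis samples was labelled with Cy3 and hybridized in single colour, per the labels. The deposited scanner files, made with Agilent Feature Extraction (9.5 per the submitters' processing notes, 9.5.3.1 per the file headers), hold intensity values: the spot mean, the local background, and a processed intensity with background subtracted and trends within the array removed, without normalization between arrays. The files also carry spot flags of 0 or 1, deposited as made by the scanner software. Spot by spot, the deposited series table repeats that processed intensity. Probe positions are those of the mm7 annotation in the files, and no mm7 genome was used, so exons and UTRs were not assigned.

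Here the processed intensity was taken as log2, non-uniform spots were left out and the 75th percentile of the array was subtracted; no deposited value was log2. The 41174 non-control probes gave 27962 gene names, 22951 probes through their accession, 6659 by symbol and 3109 by synonym, while 8455 stayed under the file's name. A gene was tested where 3 or more arrays of a group compared had it well above background. They were tested in limma 3.58.1 (R 4.3.3) with lmFit and eBayes and Benjamini-Hochberg adjustment over all genes, in a fit for each age, for WT between ages, and in 1 fit of 14 arrays for the difference of effects. Where a group was at background on all its arrays, the fold is a lower bound against the background level. The procedure was tested on simulated data. Slides and scan days come from the file headers.

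Full values are given for the kinesin genes called among the 6 largest differences per direction in each genotype comparison, the 3 largest per direction for WT between ages, and the testis list; of each partner list up to 4 genes with the smallest p are named. The members and lists were chosen with earlier results of these data known. The repeat score is that of the best ungapped match to a run of CCCTAA units, adding 1 for a matching base and -1 for a mismatch; 7 or more counts as a match. The alternatives changed the scaling (median), the normalization (quantile), the background (normexp with an offset of 50), filters, probe rules, moderation, slide and replicate blocks, and the arrays used (single slides, each array left out); leaving out replicate 4 of both 1-week genotypes and testing each probe by itself were chosen after seeing the data. Tables and figures used Python 3.11.15, numpy 2.4.6, pandas 2.3.3 and matplotlib 3.10.9.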

Additional observations from a re-analysis of the deposited data

Results flagged for a closer look

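Of 76 groups of 4 arrays (38 kinesin genes in each 1-week genotype), 9 held an array that stood apart from the other 3, where chance gives about 1 in 20 groups. The genes share the same arrays, so the groups are not independent. The share over all genes was not counted, so this number shows nothing particular to kinesin genes. Glis3KO2 replicate 3 stood apart in 6 of the 9 groups. It read 1.79 for Kif1a where the others read 2.36 to 2.44, -2.01 for Kif3b (others -1.65 to -1.57), 4.36 for Kif5b (4.70 to 4.74), -2.22 for Kif14 (-1.82 to -1.78), 2.05 for Kif21b (2.62 to 2.64) and -0.74 for Kif24 (-2.01 to -1.82). WT replicate 4 read -1.94 for Kif3b (others -1.61 to -1.57) and 1.06 for Kif5c (0.57 to 0.61), and WT replicate 1 read -0.36 for Kif18a (-0.89 to -0.84).

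The genotype effect differed between the ages for 26 genes, by the limma test of the difference itself. The 4-week effect was the higher for Kif1a by 2.62, Kif5a by 2.33, Kif5c by 2.07, Kif21a by 1.46, Kif5b by 1.40, Kif3c by 1.27, Kif13a by 1.27, Kif1c by 1.22, Kif7 by 0.98, Kifc2 by 0.89, Kif1b by 0.72 and Klc4 by 0.56. It was the lower for Kif2b (-2.63), Kif15 (-2.38), Kif2c (-2.36), Kif12 (-2.25), Kif9 (-1.74), Kif13b (-1.73), Kif22 (-1.47), Kifc1 (-1.39), Kif18a (-1.32), Kif20a (-1.32), Kif11 (-1.25), Kifc3 (-0.90), Kif3a (-0.82) and Kif23 (-0.71). The Kif3a difference was lost in 12 of 25 other settings, with adjusted p up to 0.18.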

How the results depend on the processing

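The 4-week counts of kinesin genes stayed at 18 to 20 lower and 7 to 14 higher when 1 array was left out, with 7 higher without WT replicate 3. At 1 week that range was 0 to 5 lower, with 1 higher each time. The 1-week higher count was 2 in 1 fit of all arrays and with an intensity trend, 3 with median scaling, and 0 on slide 1 only, on slide 2 only and without telomeric-repeat probes. The 1-week lower count was 3 with median scaling, 2 with no filter, 1 with a slide block, and 0 on slide 1 only and slide 2 only, where limma gave 5 and 2 lower at an unadjusted p under 0.05. Those slides hold 2 against 2 arrays and 2 WT against 1 Glis3KO2 array, whose lone sample is assumed to vary like the WT arrays, and 0 of all genes were called in either, so these counts say nothing about the kinesin genes. The WT age counts ranged over 14 higher and 17 to 18 lower, and those of the difference of effects over 10 to 12 higher and 12 to 17 lower, when 1 array was left out. The cause was not tested.

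The replicate numbers did not pair the samples: same-numbered arrays correlated at -0.17, -0.13, 0.02 and 0.16 at 1 week and at 0.14, -0.31 and 0.07 at 4 weeks, and only 1-week replicate 4 and 4-week replicate 1 correlated best with their own number. With a replicate block the kinesin counts were 1 higher and 0 lower at 1 week (7 lower at an unadjusted p under 0.05 in limma), 10 higher and 19 lower at 4 weeks, 14 and 18 for WT between ages, and 10 and 12 for the difference of effects.

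Among the 19 genes given full values, signs turned for the following. The other kinesin genes are not listed here. With median scaling the 1-week median of all kinesin genes itself went from -0.07 to 0.19, so signs of small 1-week differences depend on the scaling. At 1 week Kif2b was -0.31 without Glis3KO2 replicate 3, -0.0041 without WT replicate 3, -0.13 without WT replicate 4 and -0.08 without replicate 4 of both genotypes, with a range of -0.31 to 0.27 over single arrays left out. Kif3c was 0.18 with median scaling. Kif5b was -0.22 as the mean of all probes, -0.26 with quantile normalization and -0.015 without WT replicate 1, and up to 0.13 without Glis3KO2 replicate 3. Kif15 was -0.53 as the mean of all probes, -0.029 on slide 1 only, -0.0046 with a slide block, -0.0014 without Glis3KO2 replicate 4 and -0.057 without replicate 4 of both genotypes, and Kif21a was -0.0499 as the mean of all probes. None of these 1-week values was called. Without telomeric-repeat probes, which leaves its other probe, Kif5c was -0.91 at 4 weeks and -0.27 for the difference of effects. As the mean of all probes, Kif15 was -0.016 for WT between ages and Kif14 was 0.018 for the difference of effects. Kifc1 was -0.10 for WT between ages without 1-week WT replicate 1, and up to 0.24 without replicate 3.

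The median of all genes moved with the scaling: at 1 week from -0.07 to 0.19 with median scaling, and for WT between ages from -0.51 to -0.37. The 1-week calls over all genes split 1018 higher and 956 lower with normexp and 1442 and 1288 with quantile normalization.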
